A study of Mus musculus with 15 samples.

Results

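The genes described here are 31 mouse genes for integrin subunits, endothelial selectins, the selectin ligand Selplg, the immunoglobulin-type counter-receptors Icam1, Icam2 and Vcam1, and the surface receptors Cd44 and Cd47. They were chosen by name. Their symbols were matched to Ensembl gene identifiers on the GRCm38 build, and all 31 were found among the 33223 genes of the deposited count tables.

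The study sequenced RNA from mouse cortex taken 1 day after a moderate controlled cortical impact (CCI), a mechanical brain injury delivered to the right parietal cortex. All mice carried floxed EphA4 alleles. The wild-type mice are labelled EphA4f/f-WT (WT), and the knockout mice (EphA4f/f-VeCadCreERT2, KO) carried a tamoxifen-inducible Cre under the VE-cadherin promoter, which is active in endothelial cells and deletes EphA4, an ephrin receptor, there. Cells dissociated from ipsilateral cortex were bound to magnetic beads against CD45, a leukocyte antigen, and CD31, an endothelial one. Of the resulting fractions 2 were sequenced, the CD45 bead fraction (immune cells) and the flow-through, labelled as all other cortical cells. The comparisons used 7 flow-through libraries (4 from WT and 3 from KO) and 7 CD45 libraries (3 from WT and 4 from KO). All mice were injured, so no level can be set against uninjured cortex, and the labels give neither age, sex nor which libraries came from the same animal. P-values therefore measure the spread between these libraries, which may be in part technical.

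The library totals were 11574414 to 31337948 counts. One further library was left out: it is labelled flow-through WT, but its column stands in the CD45 table, and its levels of 22 of the 31 genes lay inside the range of the CD45 libraries. The fractions matched their labels on defining markers. Summed CPM (read counts scaled to library size) of 10 leukocyte and microglia genes were 11.6 to 16.6 in the flow-through and 12570 to 16641 in the CD45 libraries (1 of the 10, Ly6g, was at 0 in every flow-through library), while 7 astrocyte genes summed to 5784 to 7283 CPM and 176 to 254 CPM. Neither fraction is an isolate of endothelial cells: 10 endothelial genes summed to 35.4 to 53.8 CPM in the flow-through and to 363 to 612 CPM in the CD45 libraries. Epha4 itself was at 30.3 to 35.8 CPM in the flow-through and 1.99 to 4.11 CPM in the CD45 libraries. Its WT and KO ranges overlapped in both (log2 change in the flow-through -0.07 ± 0.09 SE, adjusted p = 0.849 by edgeR), so these mixed cells do not check a deletion that was confined to endothelium.

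Integrins are heterodimers of 1 alpha and 1 beta chain that bind matrix or other cells. When blood leukocytes enter inflamed tissue, endothelial P- and E-selectin (Selp, Sele) catch glycans on Selplg of rolling cells, after which leukocyte beta2 and alpha4 integrins hold on to Icam1, Icam2 and Vcam1 on the vessel wall. In the brain, beta2 integrins also mark microglia, laminin-binding integrins anchor astrocyte endfeet and vessels to basement membrane, and alphaV with beta8 activates latent TGF-beta.

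Promoter sequence is shown for the gene with the largest fold change between fractions and for the endothelial and leukocyte counter-receptor most abundant per exon length in the CD45 libraries, Icam1. RefSeq promoters (GRCm38.p6, 250 bases before to 50 after the annotated start) were matched for 20 of the 31 genes. The letters GAGGAA, a core bound by the myeloid factor PU.1, were searched on both strands, and so was GGAANTTCC, an NF-kappaB-type site. Capitals mark the matches, which are descriptions of the sequence and not evidence of binding.
Itgam promoter, chr7:128062390-128062689, plus strand: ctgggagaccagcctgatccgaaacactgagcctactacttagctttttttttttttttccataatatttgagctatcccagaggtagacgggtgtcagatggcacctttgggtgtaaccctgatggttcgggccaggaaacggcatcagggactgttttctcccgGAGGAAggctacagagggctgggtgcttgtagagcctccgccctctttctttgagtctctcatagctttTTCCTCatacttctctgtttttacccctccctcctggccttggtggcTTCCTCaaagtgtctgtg
Icam1 promoter, chr9:21015690-21015989, plus strand: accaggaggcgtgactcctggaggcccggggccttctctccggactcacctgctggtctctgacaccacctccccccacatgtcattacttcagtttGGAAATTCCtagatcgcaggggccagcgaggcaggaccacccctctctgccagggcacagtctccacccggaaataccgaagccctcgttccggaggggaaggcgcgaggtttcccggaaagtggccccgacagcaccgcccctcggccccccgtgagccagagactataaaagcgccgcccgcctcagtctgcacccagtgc
In the Itgam promoter the core occurs 3 times, starting at -84, -15 and 33 relative to the start. It is a common string, held by 28.3% of 32851 mouse promoters of the same length, and it was found for 6 of 13 genes higher in the CD45 fraction and 3 of 5 genes lower in it. The NF-kappaB-type letters are rarer, at 0.928% of promoters, and among these genes were found in Icam1, starting at -153.

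**Figure D1:**
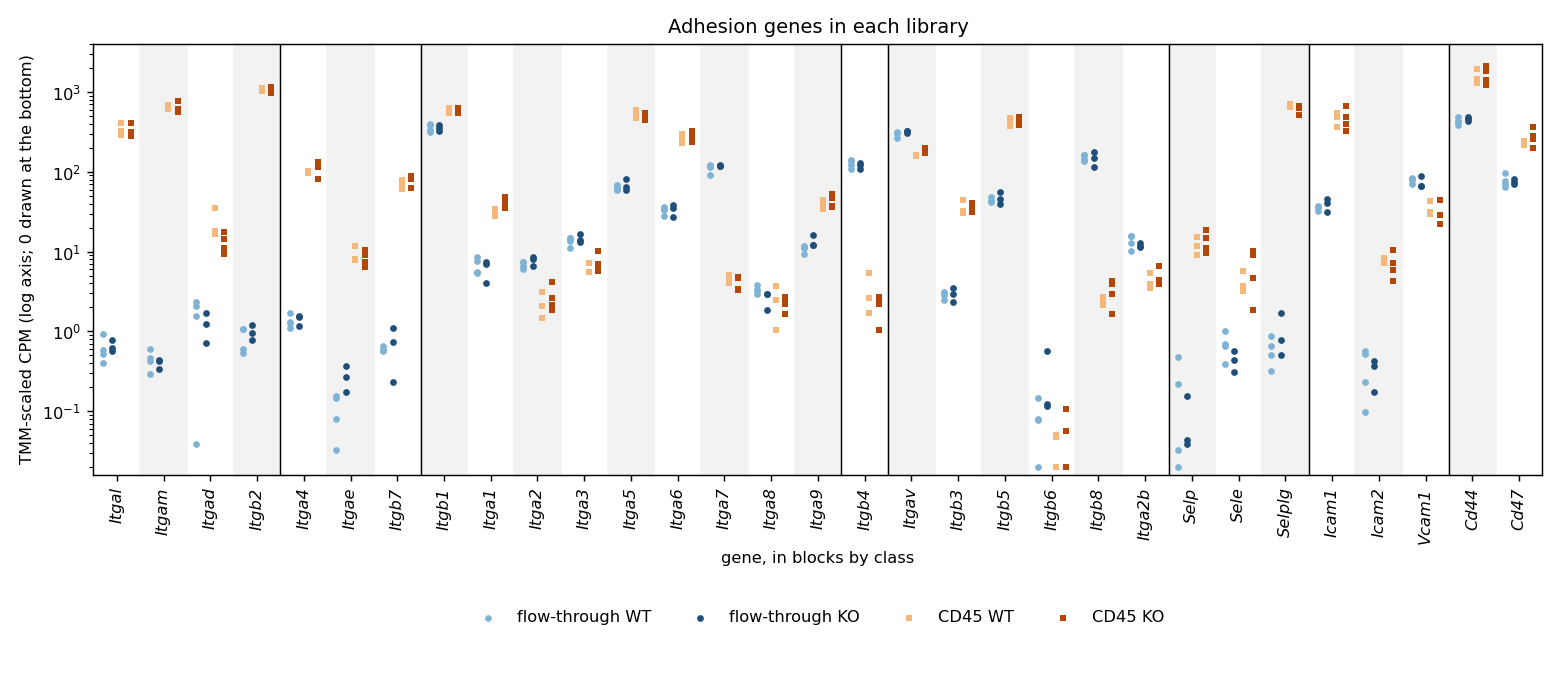
TMM-scaled CPM on a log axis for each of the 31 genes in each of the 14 libraries, in blocks by class, with circles for the flow-through, squares for the CD45 fraction and a darker shade for KO. The fractions separate for most genes, with Itgam, Itgb2, Itgal and Selplg near the bottom of the flow-through scale and Itgb4, Itgb8 and Itga7 the other way round, while WT and KO marks of a fraction mostly overlap.

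The first comparison asked where each adhesion gene's transcripts were found, by setting the 7 CD45 libraries against the 7 flow-through libraries. Of the 31 genes, 30 had enough counts to be tested, and 29 differed at an edgeR adjusted p under 0.05, with 21 higher and 8 lower in the CD45 fraction. Most genes of any kind differ between such fractions: 86.1% of the 18098 genes tested were called, 41.4% as higher and 44.7% as lower. The median log2 fold change of the 30 genes was 2.99, and that of all genes tested was -0.05. In bulk RNA, fewer cells of a type and less RNA per cell cannot be told apart, so each of these differences is one of transcript share. The libraries of the fractions did not overlap for 29 of the 30 (69.5% of all genes). Among the tested genes 8 were higher by 5 or more on the log2 scale (6.64% of all genes were), and 2 were lower by as much (5.66% of all genes were).

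The beta2 integrin genes Itgam and Itgb2 had the largest fold changes of the 30. Itgb2 (ENSMUSG00000000290, chr10:77530252-77565708, plus strand) encodes CD18, the shared beta chain of leukocyte integrins. Its level in the flow-through was 0.543, 1.07, 0.600 and 1.09 CPM in WT and 0.964, 0.789 and 1.21 CPM in KO libraries. In the CD45 fraction it was 1074, 1038 and 1128 CPM in WT and 1084, 963, 1172 and 1133 CPM in KO libraries. All CD45 libraries lay close together and far above every flow-through library (log2 fold change 10.20 ± 0.15 SE, adjusted p = 7.83e-18).

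Itgam (ENSMUSG00000030786, chr7:128062640-128118491, plus strand) encodes CD11b, the beta2 partner of microglia, monocytes and neutrophils, and had the largest fold change of the set. Its lowest, median and highest levels were 0.295, 0.428 and 0.600 CPM in the flow-through and 565, 630 and 772 CPM in the CD45 libraries. The ranges were far apart (log2 fold change 10.60 ± 0.15 SE, adjusted p = 4.34e-18). The flow-through values rest on 8 to 15 counts per library. Of its 5024 exon bases, 3450 are shared on the same strand with the predicted gene Gm49368, which had 37 counts at most, so reads that the authors' counting could not assign to either gene may be missing from Itgam.

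Itgal, which encodes CD11a of lymphocytes and other leukocytes, was at 0.400, 0.590 and 0.931 CPM (lowest, median, highest) in the flow-through and 281, 313 and 404 CPM in the CD45 libraries. It was higher by 9.01 ± 0.17 (log2, SE; adjusted p = 1.04e-16). Itgad, encoding CD11d, a macrophage beta2 partner, was much less abundant. It stood at 9.35, 16.8 and 34.8 CPM in the CD45 libraries and at 0.0388, 1.55 and 2.30 CPM in the flow-through (log2 fold change 3.70 ± 0.41 SE, adjusted p = 9.77e-07). Its spread within each fraction was wide: flow-through WT replicate 1 held 1 count where the other flow-through libraries held 23 to 70, and CD45 WT replicate 3 was the highest at 34.8 CPM. Exon bases of Itgad overlap 4 other annotated genes, one of them Cox6a2 with up to 106 counts, so its values are less certain. Itgal, Itgam and Itgad lie on one stretch of chromosome 7, with 728 kb between the former pair and 35.9 kb between Itgam and Itgad.

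The alpha4, alphaE and beta7 genes encode the integrins that bind Vcam1 and E-cadherin, and all of them were higher in the CD45 fraction. Itga4, whose product pairs with beta1 or beta7, was at 1.12, 1.33 and 1.71 CPM in the flow-through and 82.0, 104 and 133 CPM in the CD45 libraries (log2 fold change 6.25 ± 0.13 SE, adjusted p = 2.1e-16). Its partner Itgb7 was higher by 6.81 ± 0.19, at 61.8 to 89.6 CPM with CD45. Itgae, the alphaE chain of tissue T cells and some dendritic cells, had 1 to 12 counts per flow-through library and 6.42 to 11.9 CPM in the CD45 libraries (log2 fold change 5.64 ± 0.25 SE). Markers of T and NK cells (7 genes) summed to 18.5 to 34.7 CPM in the CD45 libraries, against 4131 to 8005 CPM for 8 neutrophil genes and 3830 to 8562 CPM for 7 monocyte and macrophage genes.

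Itgb1, the beta chain with the most alpha partners, was abundant in both fractions. Its lowest, median and highest levels were 319, 358 and 393 CPM in the flow-through and 541, 605 and 627 CPM in the CD45 libraries. The groups did not overlap, but its log2 fold change of 0.74 ± 0.07 was the smallest of the 21 genes that were higher (adjusted p = 5.22e-08). The 8 alpha partners grouped with it here split between the fractions. They are not all of its partners, since Itga4, given above, also pairs with it. Higher in the CD45 fraction were the fibronectin receptor chain Itga5 (2.95 ± 0.09, from a median of 64.5 to 501 CPM), the laminin receptor chain Itga6 (3.03 ± 0.11, from 34.8 to 274 CPM), the collagen receptor chain Itga1 (2.52 ± 0.15, from 6.93 to 35.2 CPM) and Itga9 (1.78 ± 0.11, from 11.6 to 40.2 CPM), each as log2 change with SE and as group medians. Lower were the laminin receptor chain Itga7 (-4.76 ± 0.11, from 118 to 4.32 CPM), the collagen receptor chain Itga2 (-1.60 ± 0.19, from 7.34 to 2.14 CPM) and the laminin receptor chain Itga3 (-1.08 ± 0.14, from 14.0 to 5.85 CPM).

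Itga7 was evenly high in the flow-through, at 90.3 to 122 CPM, and at 3.26 to 5.06 CPM in every CD45 library. Itga8, which pairs with beta1 to bind nephronectin, was the tested gene that was not called: it stood at 1.85 to 3.84 CPM in the flow-through and 1.05 to 3.66 CPM in the CD45 libraries, with overlapping ranges (-0.33 ± 0.23 SE, 95% interval -0.82 to 0.17, adjusted p = 0.194). That call was not stable, since under upper-quartile scaling it passed at -0.59 (adjusted p = 0.0252) and without CD45 WT replicate 1 it passed at -0.55 (adjusted p = 0.0320). Itga1 and Itga2, both collagen receptor chains, are neighbours on chromosome 13 with 20995 bases between them, and they lay on opposite sides of the comparison.

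Itgb4 encodes the beta partner of alpha6 in hemidesmosomes and on glial and vascular laminin contacts. It was at 107, 122 and 141 CPM (lowest, median, highest) in the flow-through and at 1.05, 2.60 and 5.35 CPM in the CD45 libraries. All flow-through libraries were above all CD45 libraries (log2 fold change -5.52 ± 0.21 SE, adjusted p = 1.46e-12). Its alpha6 partner went the other way, as given above. Removing a trend with GC content and exon length from the counts moved 5 genes by more than 1.5 times without ending a call, to -4.50 for Itgb4, -3.89 for Itga7, -0.80 for Itga2b, -0.38 for Itga3 and 3.14 for Itga1.

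The alphaV group also split. Itgav, the shared alpha chain of vitronectin receptors, was at 267 to 324 CPM in the flow-through and 159 to 198 CPM in the CD45 libraries (log2 fold change -0.85 ± 0.06 SE, adjusted p = 6.37e-10). Of its beta partners, Itgb8 was at 113, 148 and 177 CPM in the flow-through and 1.67, 2.68 and 4.22 CPM in the CD45 libraries, and was the lowest of all 30 tested genes on the fold scale (-5.75 ± 0.17 SE). Itgb5 was at 39.7, 43.7 and 55.2 CPM against 370, 460 and 493 CPM, and was higher in the CD45 fraction by 3.27 ± 0.09. Itgb3, the beta chain of platelet and macrophage vitronectin receptors, was likewise higher, by 3.60 ± 0.13, from a median of 2.94 to 32.2 CPM. Itgb6, an epithelial beta chain, had 0 to 13 counts per library and was not tested.

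Itga2b encodes the alphaIIb chain, which with beta3 forms the platelet fibrinogen receptor. It was lower in the CD45 fraction, at 3.53, 4.22 and 6.61 CPM against 10.05, 12.8 and 15.9 CPM in the flow-through (log2 fold change -1.504 ± 0.15 SE, adjusted p = 9.5e-08). Other platelet genes lay differently. Pf4, a chemokine of platelet granules that brain macrophages also express, was at 138 to 298 CPM in the CD45 libraries and at most 0.231 CPM in the flow-through. Gp9, a platelet glycoprotein chain, reached 1.48 CPM in the CD45 libraries and 0.147 CPM in the flow-through, and Gp1bb was at most 0.0932 CPM in either. The 8 platelet and megakaryocyte genes summed to 179 to 385 CPM and 0.760 to 2.37 CPM, mostly from Pf4 and Ppbp. Of these 8, 6 were at 0 in a flow-through library and 3 in a CD45 library, and their part in the Itga2b or Itgb3 values was not tested.

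**Figure D2:**
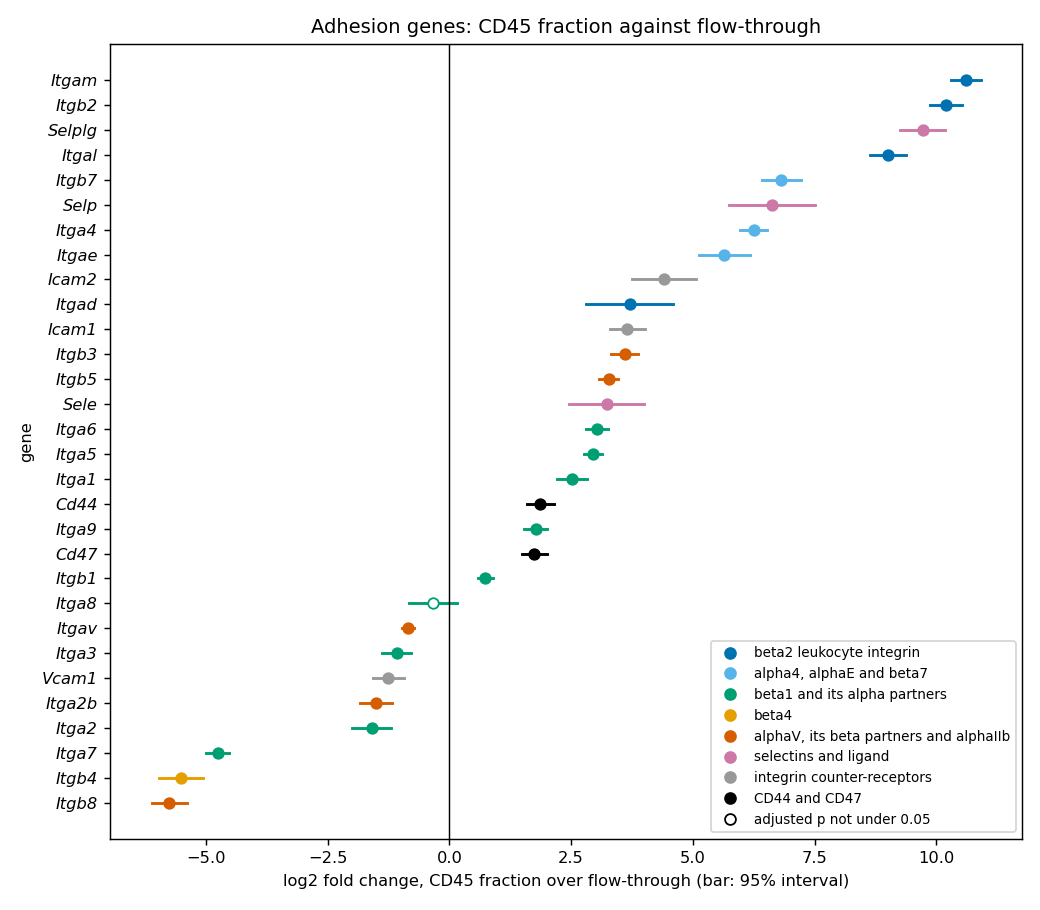
Log2 fold change of the CD45 fraction over the flow-through for the 30 tested genes, ordered by size and coloured by class, with bars for the 95% interval and an open mark where the adjusted p was not under 0.05. Values run from 10.60 for Itgam to -5.75 for Itgb8, and the interval of Itga8 spans 0.

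The selectin ligand Selplg was near the floor in the flow-through and abundant with CD45, as the beta2 chains were. It was at 0.320, 0.658 and 1.71 CPM (lowest, median, highest) in the flow-through and 508, 655 and 712 CPM in the CD45 libraries (log2 fold change 9.71 ± 0.22 SE, adjusted p = 1.2e-15). The endothelial selectins were low in both fractions but were also higher with CD45. Selp was at 0 to 0.480 CPM in the flow-through, where it had 0 to 12 counts, and at 9.17, 11.6 and 18.9 CPM in the CD45 libraries (6.63 ± 0.41). Sele was at 0.308, 0.570 and 1.000 CPM and 1.85, 4.72 and 10.1 CPM (3.23 ± 0.36), with the widest relative spread of the tested genes within the CD45 fraction. Endothelial markers were also higher with CD45, the 10 summing to 363 to 612 CPM in the CD45 libraries against 35.4 to 53.8 CPM. None of the 10 was at 0 in any library, and their median log2 fold change was 3.53. The 4 platelet and megakaryocyte genes tested, of the 8 given above, had a median of 6.58. The part of either cell type in the selectin values was not tested. Selp and Sele are neighbours on chromosome 1, 57.6 kb apart.

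The counter-receptors did not move as a block. Icam1, a receptor for beta2 integrins that inflammatory signals induce, was at 31.3, 36.6 and 45.7 CPM in the flow-through and 321, 482 and 675 CPM in the CD45 libraries (3.66 ± 0.16). Icam2, a constitutive endothelial and platelet receptor for the same integrins, was at 0.0987 to 0.560 CPM and 4.26 to 10.6 CPM (4.41 ± 0.31), beside the endothelial markers given above. Vcam1, the receptor for alpha4 integrins, which astrocytes can also make, was lower in the CD45 fraction. It stood at 66.6, 80.0 and 88.3 CPM in the flow-through and 21.9, 29.6 and 44.6 CPM in the CD45 libraries (-1.26 ± 0.15 SE, adjusted p = 1.36e-06).

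Cd44, the hyaluronan receptor of leukocytes and reactive glia, was among the most abundant genes of the set in both fractions. It was at 389, 438 and 480 CPM in the flow-through and 1212, 1441 and 2148 CPM in the CD45 libraries (1.86 ± 0.13). Cd47, the integrin-associated "do not eat me" ligand, was at 65.4, 75.2 and 95.4 CPM and 197, 247 and 363 CPM (1.74 ± 0.12). Within the CD45 fraction Cd44 and Icam1 varied more than Itgb2 did, with coefficients of variation of 22.6%, 25.5% and 6.43%. CD45 KO replicate 1 was the lowest for Cd44 (1212 CPM) and Icam1 (321 CPM), and CD45 KO replicate 4 was the highest for both (2148 and 675 CPM). The same 2 libraries were lowest and highest for the summed neutrophil genes, at 4131 and 8005 CPM, and the part of cell makeup in this spread was not tested.

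Levels were also divided by kilobases of exon, merged over all annotated transcripts of a gene, to set different genes roughly side by side. The transcripts present in these cells can be shorter than that, so the values are approximate. On this scale transcripts of different chains led in the fractions. Over the 18 alpha chain genes in the tables, the flow-through sum consisted of 41.0% ± 1.998 (SD, n = 7) Itgav, 20.3% ± 1.83 Itga7 and 19.0% ± 1.67 Itga5. In the CD45 libraries it was 31.2% ± 2.53 Itgam, 24.1% ± 0.614 Itga5, 16.0% ± 3.13 Itgax, which encodes CD11c, and 11.7% ± 1.03 Itgal. Itga5 was thus among the leading alpha chains of both fractions, while the share of Itgav was 3.86% ± 0.615 with CD45. These shares pool WT and KO libraries. Itgax stood at 330 to 508 CPM in CD45 WT and 229 to 306 CPM in CD45 KO libraries. Its log2 difference of KO from WT was -0.55 ± 0.15 SE and was not called (edgeR unadjusted p = 0.00533, adjusted p = 0.974).

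Over the 9 beta chain genes, Itgb1 gave 66.0% ± 2.45 of the flow-through sum, followed by Itgb4 at 13.4% ± 1.66, Itgb8 at 10.2% ± 1.38 and Itgb5 at 9.66% ± 1.34. In the CD45 libraries Itgb2 gave 53.9% ± 2.75, Itgb1 22.2% ± 1.45, Itgb5 18.8% ± 2.09 and Itgb7 4.10% ± 0.464. Transcripts of the beta2 alpha partners Itgal, Itgam, Itgad and Itgax, summed per kilobase, were 0.647 to 0.842 times those of Itgb2 across the 7 CD45 libraries. Itgam was 2.21 to 3.22 times Itgal on the same scale. Reads may be missing from Itgam where it shares exon bases with Gm49368, as given above, so both ratios may be too low. By mean CPM per kilobase the order in the flow-through was led by Itgb1 (87.5), Cd44 (65.1) and Itgav (28.6), and in the CD45 libraries by Itgb2 (355), Cd44 (239), Selplg (149), Itgb1 (146) and Itgam (132). Selplg and Itgb1 are neighbours in that order whose levels lie within their spread.

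**Figure D3:**
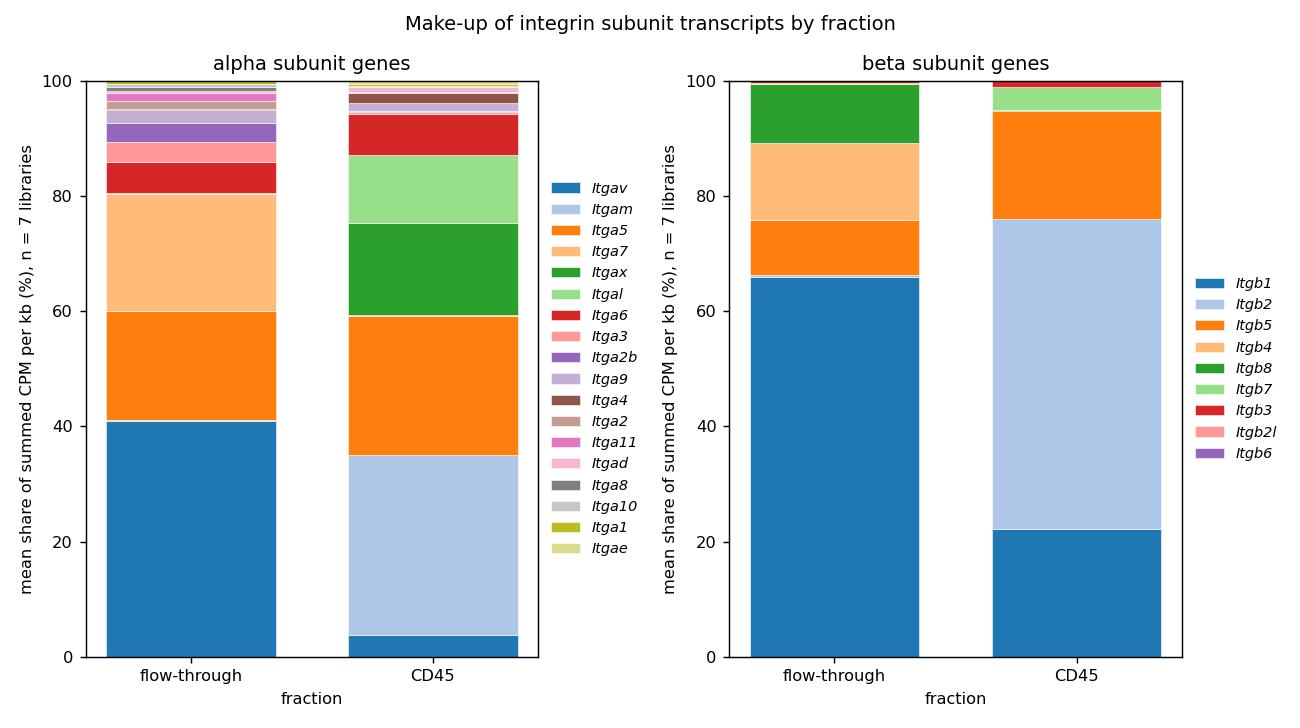
Mean share (%) of each alpha chain gene (left) and each beta chain gene (right) in the summed CPM per kilobase of exon, for the 7 flow-through and 7 CD45 libraries. Itgav and Itgb1 lead the flow-through at 41.0% and 66.0%, and Itgam and Itgb2 lead the CD45 fraction at 31.2% and 53.9%.

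The second comparison asked whether endothelial loss of EphA4 altered these genes in the flow-through cells. Of the 31 genes 28 were tested there, and none was called at an adjusted p under 0.05 by edgeR's quasi-likelihood test, beside 1.57% of all 16546 genes (260 called). DESeq2 called none of them either, beside 2.64% of all genes. At an unadjusted p under 0.05 there was 1 gene of the 28 (11% of all genes).

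That gene was Itga9, a chain that with beta1 binds tenascin and Vcam1. It was at 11.1, 11.3, 11.6 and 9.24 CPM in the WT and 12.1, 12.2 and 16.0 CPM in the KO libraries. All KO libraries were above all WT libraries, by a margin that is small between the nearest pair. The log2 fold change was 0.30 ± 0.13 SE (95% interval 0.01 to 0.59, edgeR unadjusted p = 0.0408, adjusted p = 0.416). It was also the only one of the 28 whose libraries did not overlap, where 11.4% of all genes did not.

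For the abundant flow-through chains the intervals were narrow. The log2 difference between KO and WT had a 95% interval of -0.24 to 0.21 for Itgb1, -0.11 to 0.28 for Itgav, -0.15 to 0.30 for Itga7, -0.32 to 0.12 for Itgb4 and -0.35 to 0.24 for Itgb8. Those of Icam1 (-0.12 to 0.37), Vcam1 (-0.34 to 0.14) and Cd44 (-0.16 to 0.28) were of like width. For genes near the floor of detection little can be said at this depth: the interval was -1.504 to 0.18 for Sele, -0.24 to 1.65 for Selplg, -1.27 to 1.11 for Icam2 and -2.18 to 1.53 for Itgad. Selp and Itgae had too few counts to be tested in the flow-through.

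**Figure D4:**
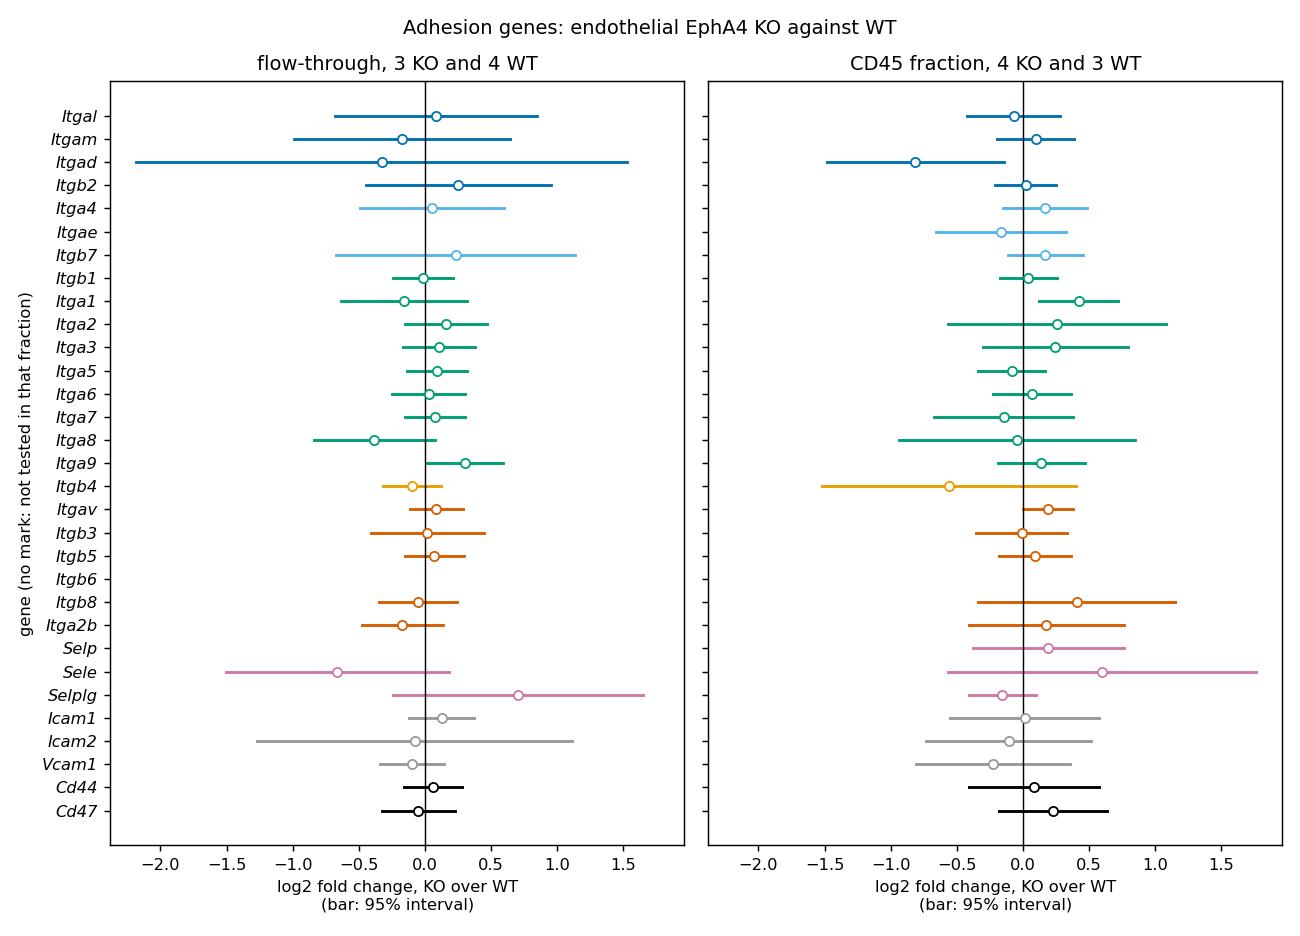
Log2 fold change of KO over WT with its 95% interval for each gene in the flow-through (left, 3 KO and 4 WT libraries) and in the CD45 fraction (right, 4 KO and 3 WT), with no mark where a gene was not tested. No gene passed the adjusted threshold in either fraction, and the widest flow-through interval is that of Itgad, from -2.18 to 1.53.

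The third comparison asked the same of the CD45 fraction. There 30 of the 31 genes were tested and none was called, beside 0% of all 15660 genes by edgeR's quasi-likelihood test; DESeq2 called 0.0639% of all genes (10) and none of these. At an unadjusted p under 0.05 there were 3 of the 30 (4.43% of all genes), and the libraries of 2 of them did not overlap (5.24% of all genes).

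Itga1 was at 34.5, 28.02 and 33.5 CPM in the CD45 WT and 39.9, 35.2, 46.7 and 48.5 CPM in the CD45 KO libraries. Every KO library was above every WT library, the nearest pair being 35.2 and 34.5 CPM. The log2 difference was 0.42 ± 0.13 SE (95% interval 0.12 to 0.72, edgeR unadjusted p = 0.0103, adjusted p = 0.974). In the flow-through Itga1 differed by -0.16 ± 0.22, and the difference between the 2 fractions' genotype effects was 0.56 ± 0.28 (unadjusted p = 0.0663, adjusted p = 0.702).

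Itgav was at 162, 164 and 159 CPM in the CD45 WT and 177, 198, 186 and 171 CPM in the CD45 KO libraries, again without overlap but by 0.19 ± 0.08 (log2, SE; edgeR unadjusted p = 0.0478, adjusted p = 0.974). Itgad was at 16.8, 18.0 and 34.8 CPM in WT and 17.4, 9.35, 10.97 and 14.5 CPM in KO libraries. One KO library lay within the WT range, and WT replicate 3 stood far above the rest (-0.81 ± 0.29 SE, edgeR unadjusted p = 0.0225, adjusted p = 0.974). None of the 3 genes passes the adjustment over all genes.

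The 9 genes with the highest CD45 levels per kilobase had unequal intervals for KO over WT on the log2 scale. They were -0.21 to 0.25 for Itgb2, -0.41 to 0.10 for Selplg, -0.18 to 0.25 for Itgb1, -0.20 to 0.39 for Itgam, -0.18 to 0.36 for Itgb5, -0.34 to 0.17 for Itga5 and -0.42 to 0.28 for Itgal. Those of Cd44 (-0.41 to 0.57) and Icam1 (-0.55 to 0.58), the genes that varied most among CD45 libraries in this group of 9, were wider. For the endothelial selectins they were -0.38 to 0.76 for Selp and -0.56 to 1.76 for Sele. Sele stood at 5.75, 3.67 and 3.25 CPM in CD45 WT and 4.72, 9.01, 10.1 and 1.85 CPM in CD45 KO libraries, so that KO held both the lowest and the highest values.

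A test of the difference between the fractions' genotype effects called none of 30 genes (0% of all 18098 genes by edgeR, and 0.254% by DESeq2, none of them in this set). One of the 30 had an unadjusted p under 0.05 (7.21% of all genes), Itgae at -1.59 ± 0.55 SE (unadjusted p = 0.0111, adjusted p = 0.611). It rests on flow-through levels of 0.155, 0.147, 0.0800 and 0.0329 CPM in WT and 0.270, 0.175 and 0.373 CPM in KO libraries, which are 1 to 12 counts each.

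The fraction differences were of the same direction within each genotype for all 30 tested genes. With the WT libraries alone the log2 change was 10.54 for Itgam, 10.39 for Itgb2, 10.20 for Selplg and -5.91 for Itgb8, and with the KO libraries alone it was 10.72, 10.06, 9.28 and -5.55. The genes whose values moved most between these subsets were low in the flow-through: Itgae gave 6.49 and 4.84, and Sele gave 2.66 and 3.84.

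Other genes of the adhesion pathway were counted from lists. Over all genes 41.4% were called higher in the CD45 fraction and 44.7% lower, with a median of -0.05, and the counts of each list are to be read beside those. Of 21 further integrin, selectin and immunoglobulin-type genes 20 were tested between fractions, with 12 higher in the CD45 fraction, 7 lower and a median log2 fold change of 1.20. Itgax was high among them (9.73 ± 0.19), and the junctional gene Jam3 (-3.90 ± 0.10) and Madcam1, the alpha4beta7 receptor of gut vessels that was near the floor here (-3.58 ± 0.99), were at the bottom. Of 32 integrin activation and adaptor genes 31 were tested, with 22 higher, 8 lower and a median of 2.68. The Src-family kinase Fgr, which signals from leukocyte integrins, was high among them (9.38 ± 0.15), and the scaffold Bcar1 (-4.15 ± 0.14) and the kindlin Fermt2 (-3.96 ± 0.17) had the lowest values.

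Of 24 tested ligand genes 6 were higher in the CD45 fraction and 16 lower, with a median of -0.85. Thbs1, a thrombospondin that binds Cd47 (8.69 ± 0.13), and fibronectin Fn1 (6.39 ± 0.22) were the most CD45-biased, and the hyaluronan synthase Has2 (-5.13 ± 0.21) and the alphaV ligand gene Edil3 (-4.84 ± 0.19) the least. Of 11 tested selectin ligand synthesis genes 9 were higher and 2 lower, with a median of 2.34. The branching enzyme gene Gcnt1 (7.85 ± 0.12) and the galactosyltransferase gene B4galt1 (5.21 ± 0.10) were highest, and the sulfotransferase genes Chst2 (-4.70 ± 0.24) and Tpst1 (-2.12 ± 0.11) were the lower ones. All these values are log2 fold changes of CD45 over flow-through with SE.

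Between genotypes edgeR called 1 of the 81 list genes tested in the flow-through (1.23%, beside 1.57% of all genes), a share near the background. It called 0 of 83 in the CD45 fraction (0% of all genes). Of those 83, 5 had an unadjusted edgeR p under 0.05, beside 4.43% of all genes. In the flow-through such genes were 5 of 17, 2 of 29, 1 of 24 and 3 of 11 in the lists as ordered above, beside 11% of all genes. DESeq2 called 2 of the 81 (2.47%, beside 2.64% of all genes) and 0 of the 83. The gene called by both was Ptk2b, a focal adhesion kinase relative that is also abundant in neurons. The other, Icam5, an adhesion gene of forebrain neurons that was named after its values were seen, differed by 0.82 ± 0.22 SE with DESeq2 (adjusted p = 0.0127) and was not called by edgeR (adjusted p = 0.0784). Ptk2b was at 14.0 to 23.9 CPM in the 4 flow-through WT and 30.4 to 41.8 CPM in the 3 KO libraries, without overlap. The log2 difference was 0.83 ± 0.17 SE (adjusted p = 0.0436 by edgeR's quasi-likelihood test). That p was not under 0.05 when any single flow-through library other than WT replicate 1 was left out, and ranged from 0.0539 to 0.147 in those 6 fits. Summed CPM of 8 neuron genes was 654 to 741 in those WT and 693 to 917 in those KO libraries. Their log2 differences went both ways, with 5 positive and 3 negative. By edgeR 1 of the 8 was called higher and 1 lower in KO (25%, beside 1.57% of all genes). The part of neurons in the Ptk2b value was not tested.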

How the data were processed

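The authors deposited raw counts per gene, 1 table per fraction, made from TruSeq stranded mRNA libraries (14 PCR cycles); per the submitters' processing notes the tools were Trim Galore, FastQC, STAR 2.7.9a and DESeq2, and the build GRCm38. How reads were assigned to genes, with or without strand, is not given in the sources used here, so genes that overlap on opposite strands cannot be told apart. The normalized tables were not used.

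Genes were matched to GENCODE M21, which holds 33130 of the 33223. Libraries were grouped by their labels. The numbering of replicates is by accession order and pairs no samples. The test was edgeR 4.0.16 under R 4.3.3 (quasi-likelihood test, robust, TMM scaling, filterByExpr with a minimum count of 10 and a total of 15) run on the counts, with Benjamini-Hochberg adjustment over all genes tested and a threshold of 0.05. The fraction and interaction tests used all 14 libraries, and each genotype test used the libraries of its fraction. DESeq2 1.42.0, other scalings, filters, a GC and length correction, other placements of the left-out library and leaving out each library were alternatives. Printed CPM are TMM-scaled over the 14 libraries, and intervals are at 95%. Chi-square values over genes, per degree of freedom, were 10.2 to 55.2 for the 18 pairs of same-group libraries, above sampling noise for each pair. The scripts were tested on simulated data.

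The members and the lists were chosen with earlier results of these data known. All 31 members were named; of each other list, the 2 highest and 2 lowest genes called between fractions and any gene called between genotypes. Of the genes that this rule names, 2 are not reported here.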

Additional observations from a re-analysis of the deposited data

Results flagged for a closer look

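In the flow-through WT libraries Icam1 was at 36.2, 36.8 and 36.6 CPM in replicates 1 to 3 and at 32.1 CPM in replicate 4, a gap of 0.874 of the group's range (Dixon's test). Of 62 gene and group combinations tested this was the only flag, and chance flags about 1 in 20. The flow-through KO libraries ran from 31.3 to 45.7 CPM.

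Itgb2 stood at 811.7 CPM (unscaled) in the library left out of the comparisons, which is labelled flow-through WT, where the 4 flow-through WT libraries used held 0.656 to 1.34 CPM on the same scale and the CD45 libraries 830 to 960 CPM.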

How the results depend on the processing

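Between fractions 29 of the genes were called, and 29 to 30 in every alternative (30 with upper-quartile scaling, without CD45 WT replicate 1 and without a filter, where Itgb6 was tested too). No gene changed direction: of 750 values 748 kept their call, and the other 2 are those of Itga8. Upper-quartile scaling moved the median of all genes by -0.25. Entering the odd library as labelled lowered the fold changes of genes near 0 in the flow-through (Itgam 6.63, Itgb2 6.29, Selplg 5.85), as its construction implies, and all stayed called. 

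No alternative called any of the genes between genotypes or in the interaction. Uncalled values changed sign in 45 of 440 flow-through, 30 of 480 CD45 and 76 of 690 interaction values. Calls over all genes in the flow-through were 260, and 629 without a filter, 436 with DESeq2, 30 in a joint fit, 0 with the odd library as labelled and 134 to 287 when a library was left out. In the CD45 fraction they were 0, and 10 with DESeq2 and 0 to 1 when a library was left out. For the interaction they were 0, and 15 without a filter, 46 with DESeq2, 1 with the odd library placed with CD45 WT and 0 to 2 when a library was left out; the cause was not tested. Ptk2b reversed to -1.28 with the odd library as labelled and was 0.74 (adjusted p = 0.187) after the GC and length correction.

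No paired analysis was possible because the replicate numbers follow accession order and the labels tie no libraries to one animal. Depth limits the genes with few flow-through counts: the fold changes of Selp, Itgae, Icam2 and Sele have wide intervals, and Itgb6 was not tested. The interval of Itgad between fractions was also wide, from 2.81 to 4.59, on 1 to 70 counts per flow-through library.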
